A study of Homo sapiens with 3 samples.

Results

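The comparison described here sets the array of HSC-3 cells with a scrambled short hairpin RNA (shScr) against the array of parental HSC-3 cells, which makes 2 of the 3 arrays of the study. Both were chosen by their labels alone. HSC-3 is an established line from a human squamous cell carcinoma of the tongue, grown in DMEM with fetal bovine serum. The shScr cells had received lentivirus, made in HEK293 cells, that carried the pGFP-C-shLenti vector with a non-effective hairpin cassette, and they were kept in puromycin. The parental cells carried no hairpin, and the label names no vector, virus or puromycin for them. The third array holds HSC-3 cells with a hairpin against DKK3 (shDKK3), also made with lentivirus in a GFP vector and kept in puromycin. Whether the shScr cells are 1 clone or a mixed population is not given in the sources used here.

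Each condition was measured on 1 array. No test between conditions was therefore possible, no p-value is given, and every difference below is one between arrays. The vector, the virus, GFP, puromycin, time in culture, the state of the dishes at harvest and the arrays themselves all differ together between shScr and parental cells, or may do so, and cannot be told apart. In RNA from a whole culture, fewer cells of a type and less RNA per cell cannot be told apart either.

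A scrambled hairpin is a control for the steps that every hairpin line goes through. The virus inserts its vector into the genome, the cell transcribes the hairpin, and Dicer cuts it into a small RNA that Argonaute proteins load. Such steps can touch the RNA interference machinery and the sensors of foreign nucleic acid that switch on interferon genes, while puromycin blocks translation in cells without the resistance gene. A comparison of the control line with its parent shows what lies between them without any hairpin against DKK3.

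The arrays were read as log2 levels after background correction and quantile normalisation, and differences are shScr minus parental. Levels in linear units are the authors' deposited normalised intensity, in which the probes with a value have a median of 25 on each array. No value was given for 3712 probes on the shScr array and 2746 on the parental array. In these units the median difference of all compared genes was -0.20, against 0.00 for the log2 levels. Linear values of a gene can therefore read lower on the shScr array where its log2 difference does not. Of 24451 gene probes, those brighter than the blank limit numbered 19592 (80.1%) on the shScr array, 19881 (81.3%) on the shDKK3 array and 19184 (78.5%) on the parental array. Of the 24 copies of a control spot, the log2 SD was 0.192 on the shScr array and 0.127 on the parental array. A second control had a log2 SD of 0.136 on the shScr array and 0.097 on the parental array. These SDs measure spot noise within an array, and position on the array may enter them. All 14 squamous epithelial markers were detected on both arrays, with a summed deposited intensity of 37090 on the shScr array and 44987 on the parental array. The brightest marker alone made up 10197 on the shScr array and 19762 on the parental array. By log2 difference the 14 had a median of 0.09, with 9 above 0 and 5 below. The sums over the fibroblast, endothelial, leukocyte, neuronal and melanocyte markers lay between 101.2 and 318 on the shScr array and between 138 and 393 on the parental array. PTPRC, the common leukocyte antigen CD45, was not detected on either array.

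Position on the array moved with the comparison by a small amount. The median difference was between -0.11 and -0.01 in blocks 1 to 12 of the array and between 0.01 and 0.13 in blocks 13 to 24. Taking out the block medians, an alternative added after the data were seen, left 57 higher and 144 lower genes. The medians of 23 chromosomes lay between -0.03 and 0.03, and 5 groups of genes by genomic length had medians between -0.01 and 0.01. The 2-fold counts did differ with length. From the shortest to the longest group, 22, 16, 13, 7 and 1 genes were 2-fold higher. In the same order, 43, 30, 27, 27 and 19 genes were 2-fold lower. The cause was not tested.

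**Figure D1:**
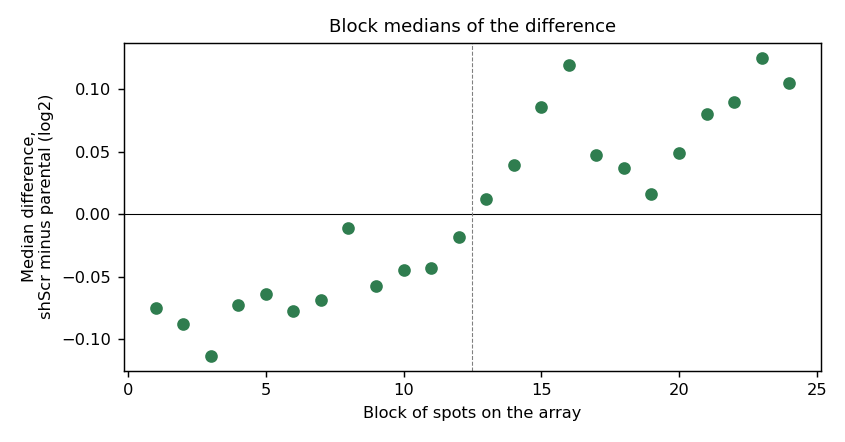
Median log2 difference, shScr minus parental, in each of the 24 blocks of spots on the array, over probes above a log2 level of 6.5. Each point is 1 block, the dashed line parts blocks 1 to 12 from blocks 13 to 24, and all points lie within -0.11 and 0.13.

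Across 14810 genes that were detected on the brighter array, the median difference was 0.00 and the robust SD 0.16, and 95% of genes lay between -0.72 and 0.62. At least 2-fold higher on the shScr array were 60 genes (0.405%), and at least 2-fold lower were 146 genes (0.986%), together 1.39% of the genes compared. By the same rule the shDKK3 array differed from the shScr array in 1126 of 15106 genes (7.45%) and from the parental array in 583 of 14922 genes (3.91%). These 3 comparisons share arrays with each other. Lower genes made up 70.9% of the 2-fold different genes between shScr and parental. That split moved with the scaling: 95 higher and 109 lower genes (53.4% lower) with scaling to the median, and 158 higher and 965 lower genes (85.9% lower) in the authors' deposited table, where the median of all genes lay at -0.20. The files also hold a column headed as background. It followed the spots themselves (r = 0.886 on the shScr array and 0.932 on the parental array across gene probes), so it was subtracted only as an alternative. Of 79 genes named here as 2-fold different, 59 then kept their sign and 29 kept both sign and 2-fold. Dim genes hardly reached 2-fold, since the correction shrinks their folds. With genes ranked by level into 5 equal groups, the brightest group held 44 of the 60 higher and 87 of the 146 lower genes, and the dimmest group held 0 of either. The counts of 2-fold members in the lists below were not set against genes of like brightness.

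**Figure D2:**
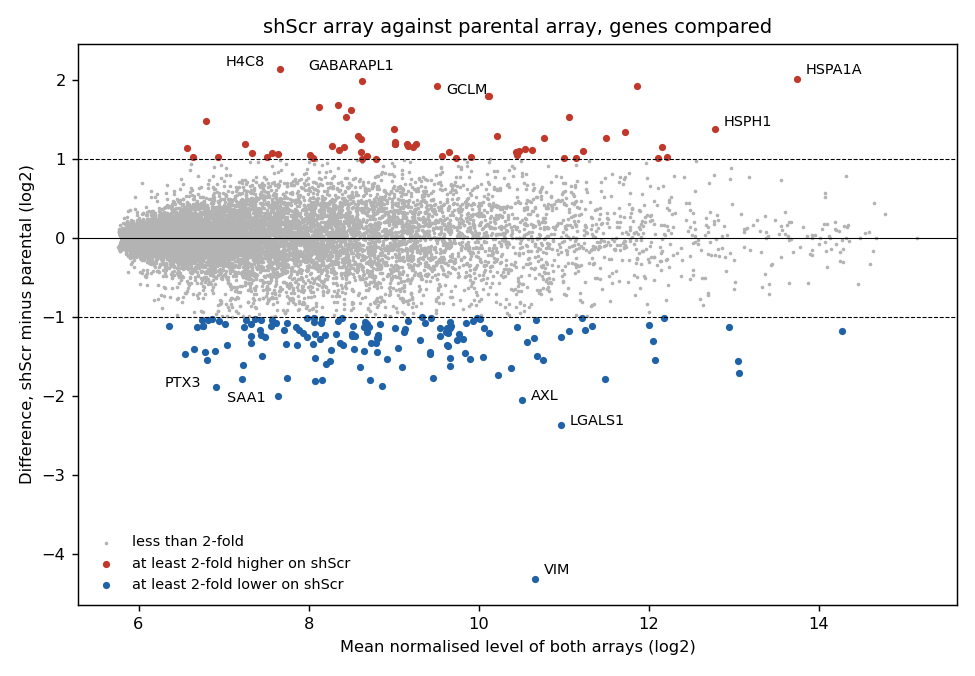
Log2 difference, shScr minus parental, against the mean log2 level of both arrays for the 14810 genes compared; each point is 1 gene, and dashed lines mark 2-fold. The 60 higher genes end at 2.14, and VIM stands alone at -4.32, below LGALS1 at -2.37.

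A second probe for a gene reads the same RNA on the same arrays, so it bears on probe noise only and gives nothing on the spread between cultures. In 1799 genes with 2 detected probes, the robust SD of 1 probe's difference was 0.13, and 0.20 in the brighter part of these genes. Such a second probe existed for 22 of the 2-fold different genes. It had the same direction in 4 of 6 higher genes and 14 of 16 lower genes. The higher genes had a median of 0.75 on the second probe and 1.03 on the first, and the lower genes -0.82 and -1.11. RBM4, TTYH3, CALCA and PFKFB3 are the genes whose second probe had the opposite sign, at -0.54, -0.31, 0.35 and 0.03. The genes with a second probe at least 2-fold in the same direction were HSPA1A (2.53), H2AZ2 (-2.27), CTHRC1 (-1.17) and KLHL5 (-1.07). Both sets were named after their values were seen.

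**Figure D3:**
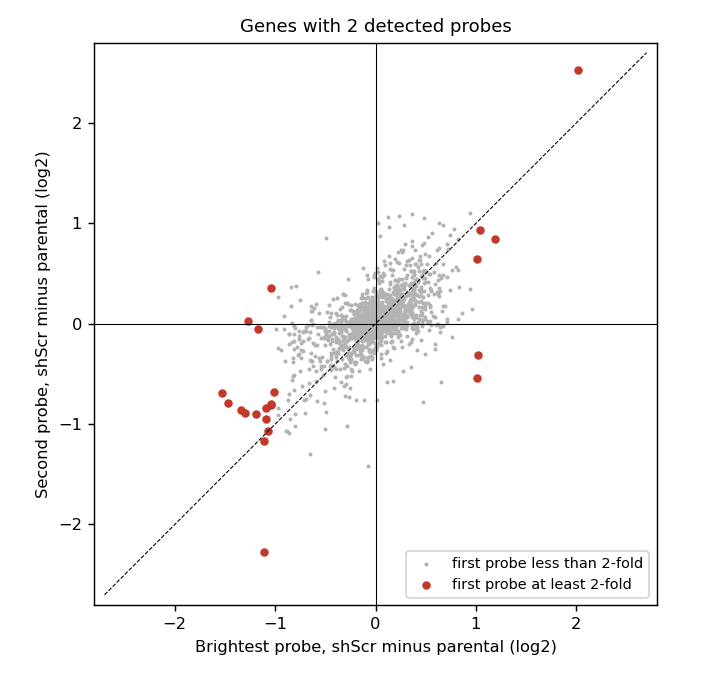
Log2 difference, shScr minus parental, of the second probe against that of the brightest probe, for 1799 genes with 2 detected probes. Red points are the 22 genes at least 2-fold different on the first probe, 18 of which lie in the 2 quadrants of equal sign.

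Heat shock proteins and their helpers stood out among the higher genes. These chaperones bind unfolded proteins in the cytosol, and their genes are driven by heat shock factors when misfolded protein builds up. HSPA1A, the stress-inducible HSP70, had a deposited intensity of 15019 on the shScr array and 4811 on the parental array, a difference of 2.01. Its second probe read 12076 on the shScr array and 2728 on the parental array, a difference of 2.53. HSPA1B, a near-identical copy whose transcripts the probes may not separate, read 3843 on the shScr array and 1312 on the parental array (1.93). Its sign turned to -0.06 when the background column of the files was subtracted, which put HSPA1A at 5.05. HSPH1, an HSP110 that exchanges the nucleotide of HSP70, read 5934 on the shScr array and 3057 on the parental array (1.38). Its fold in the authors' deposited table was 1.94. AHSA1, which activates the ATPase of HSP90, read 3004 on the shScr array and 1462 on the parental array (1.34). All 4 genes were thus bright on both arrays and brighter on the shScr array.

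Of 31 heat shock proteins and co-chaperones compared, 28 lay above 0, 6 reached 2-fold on the higher side and 0 on the lower side, with a list median of 0.45. Among all genes compared, 51.1% lay above 0 and the median was 0.00, while 0.405% were 2-fold higher and 0.986% 2-fold lower. The same shares are the background for the lists that follow. STIP1, which hands clients from HSP70 to HSP90, and DNAJB4, a J-domain partner of HSP70, complete the 6, at 1.13 and 1.06. DNAJB1 (0.92) and BAG3 (0.91), a J-domain protein and a nucleotide exchange factor that are also heat shock factor targets, stayed below 2-fold. HSPA6, an HSP70 that is nearly silent without strong stress, read 14.2 on the shScr array and 19.3 on the parental array (-0.07, and 0.445 on its second probe). The factor HSF1 itself differed by 0.10 and HSF2 by 0.65.

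The promoter of HSPA1A is shown because it is the textbook target of heat shock factor and because both probes of the gene lay high. The window, from RefSeq (GRCh38.p14, chr6:31815293-31815592, plus strand, written 5′ to 3′), runs from 250 bases before the annotated start to 50 after it. Capitals mark the match to the paired heat shock units, searched as GAANNTTC or TTCNNGAA, each of which reads the same on both strands. It begins 106 bases before the start.
HSPA1A: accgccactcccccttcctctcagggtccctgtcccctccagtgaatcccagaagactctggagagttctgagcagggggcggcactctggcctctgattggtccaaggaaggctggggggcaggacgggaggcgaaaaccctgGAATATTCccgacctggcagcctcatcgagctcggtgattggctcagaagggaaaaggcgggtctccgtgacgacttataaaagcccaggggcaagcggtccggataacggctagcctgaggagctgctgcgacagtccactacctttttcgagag
Such a match lay in 10 of the 27 heat shock list promoters found in the table (37.0%) and in 3738 of all 27305 promoters (13.7%). The 10 genes with a match had a median difference of 0.21, and the list members without one 0.65.

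The chaperonins, barrel-shaped machines that fold proteins such as actin and tubulin, differed less. Of 18 genes for them and for mitochondrial chaperones and prefoldins, 16 lay above 0 and 0 were 2-fold higher, with a median of 0.34. CCT6A, a subunit of the cytosolic ring, read 4393 on the shScr array and 3038 on the parental array (0.98). HSPD1, the mitochondrial HSP60, read 5715 on the shScr array and 4183 on the parental array (0.89). Both values were below 2-fold, and in the authors' deposited table the folds were 1.45 for CCT6A and 1.37 for HSPD1. The 23 genes of the chaperones of the endoplasmic reticulum had a median of -0.12 with 16 genes below 0, and a median of 0.05 with the background column subtracted. None of them was 2-fold different, DNAJB9 (0.60) and PDIA3 (-0.52) lying farthest out.

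Genes of protein breakdown were also higher in part. The proteasome degrades proteins marked with ubiquitin, and 28 of its 31 subunit genes compared lay above 0 with a median of 0.28. None was 2-fold higher. PSMC4 and PSMC6, ATPases of the regulatory base, reached 0.85 and 0.81. ZFAND2A, an arsenite- and heat-inducible partner of the proteasome, read 388 on the shScr array and 115 on the parental array (1.62). UBE2G1, a ubiquitin-conjugating enzyme, read 353 on the shScr array and 96.5 on the parental array (1.68).

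Autophagy genes, which build the membrane that carries protein and organelles to the lysosome, had a median of 0.28, with 21 of 27 above 0 and 3 at least 2-fold higher. GABARAPL1, a ubiquitin-like protein of the autophagosome membrane, read 482 on the shScr array and 110 on the parental array (1.99). Its sign turned to -0.51 when the background column of the files was subtracted. MAP1LC3B, which is LC3B of the same family, read 367 on the shScr array and 150 on the parental array (1.25). SQSTM1, the cargo receptor p62, read 2015 on the shScr array and 1119 on the parental array (1.10, and a fold of 1.80 in the authors' deposited table). These 3 genes belong to the conjugation family and its receptor, whereas the initiating kinase ULK1 lay at -0.23.

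Targets of NRF2, the factor that answers oxidants and electrophiles, had a median of 0.23, with 18 of 23 above 0 and 2 at least 2-fold higher. GCLM, the modifier subunit of the enzyme that starts glutathione synthesis, read 869 on the shScr array and 238 on the parental array (1.92). Its catalytic partner GCLC differed by 0.15. AKR1C2, an aldo-keto reductase with close relatives, read 347 on the shScr array and 162 on the parental array (1.09). HMOX1, heme oxygenase, differed by 0.92 and the cystine carrier SLC7A11 by 0.97, both below 2-fold. NQO1, a classic member of the list, lay at -0.18.

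The ATF4 response, which follows amino acid shortage and other stresses that slow translation, was mixed, with 13 of 23 above 0 and a median of 0.25. DDIT3, the factor CHOP, read 279 on the shScr array and 115 on the parental array (1.17) and was the only member that reached 2-fold. PHGDH, an enzyme of serine synthesis, lay at -0.98. Ribosome biogenesis factors had a median of 0.33, with 28 of 34 above 0 and 0 at 2-fold, NOP56 (0.96) and NOP16 (0.85) being the highest. Ribosomal proteins had a median of 0.01 with 0 of 59 at 2-fold. Of 43 translation factors, EIF4A2, an RNA helicase, and EIF1, which helps choose the start codon, were 2-fold higher at 1.26 and 1.01. EIF1 lay at 0.65 on its second probe and had a fold of 1.58 in the authors' deposited table. Of 15 aminoacyl-tRNA synthetases, TARS1 was 2-fold higher at 1.03, with a fold of 1.87 in the authors' deposited table. Of 35 golgins and transport proteins of the early secretory path, SEC23B, a coat subunit, was 2-fold higher at 1.16, and the list median was 0.23.

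Among the brightest probes per gene, H4C8 had the highest difference under the quantile normalisation, while the authors' deposited table puts GLTPD2, at a fold of 8.75, above it at 7.69. H4C8, a replication-dependent histone, annotated on the array as HIST1H4H, read 254 on the shScr array and 33.0 on the parental array (2.14, and 0.28 with the background column subtracted). H2AC19, annotated as HIST2H2AA4, read 1221 on the shScr array and 391 on the parental array (1.80), and H2BC13, annotated as HIST1H2BL, read 2098 on the shScr array and 857 on the parental array (1.54). Such genes are close copies, so the values of single members are uncertain. The list of replication-dependent histones as a whole had a median of 0.04, with 13 of 20 above 0. Its 2-fold members were H4C8 and H2BC12 (1.27), while H2AC19 and H2BC13 stand outside the list and were named by the size of their difference. Transcripts of these genes normally end without a poly(A) tail.

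The remaining genes among the 15 highest were of mixed function. TRIM7, a ubiquitin ligase, read 1218 on the shScr array and 389 on the parental array (1.80), while its second probe was detected on neither. MMP10, stromelysin-2, read 299 on the shScr array and 78.8 on the parental array (1.66). IFRD1, a transcriptional coregulator, read 357 on the shScr array and 113 on the parental array (1.53). CYB5R1, a cytochrome b5 reductase, read 510 on the shScr array and 197 on the parental array (1.39). GLTPD2 read 91.2 on the shScr array and 10.4 on the parental array (1.49). The 15 were picked from genes detected on both arrays and at least 2-fold higher in the authors' deposited table too. Of the 60 higher genes, 43 met that rule. The authors' table holds the same spots scaled in another way and is no second measurement.

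**Figure D4:**
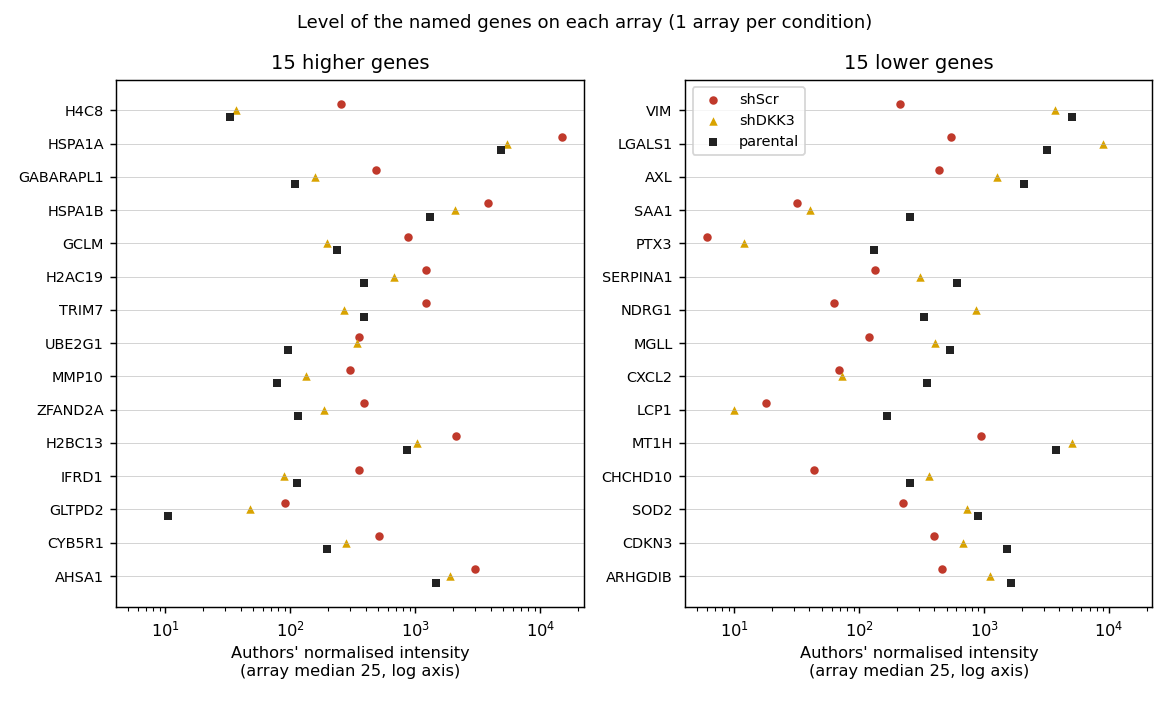
Authors' normalised intensity of 15 higher genes (left) and 15 lower genes (right) on a log axis. Red circles are the shScr array, yellow triangles the shDKK3 array and black squares the parental array. Probes with a value have a median of 25 on each array. Each symbol is 1 array; red lies right of black in the left panel and left of black in the right panel, which is how the genes were chosen.

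Of 99 genes in the 5 lists that bear on a hairpin, a virus or puromycin, 1 was 2-fold different (1.01%), which is near the share of all genes and is no result about these lists. Of 15 genes of the RNA interference machinery, 0 were 2-fold different, and the list ran from -0.31 to 0.59 with a median of 0.04. Dicer (DICER1) differed by 0.04 and the slicing Argonaute AGO2 by 0.04. TSNAX and TSN, the 2 parts of the translin complex that removes passenger strands, were the highest at 0.59 and 0.38. With the background column subtracted they lay at -0.04 and 0.01, and the second probe of TSN at 0.01. Of 17 sensors of foreign nucleic acid and their adaptors, 0 were 2-fold different and the median was 0.01. RIGI, a sensor of viral RNA, read 47.5 on the shScr array and 127 on the parental array (-0.87, and -0.75 on its second probe). The kinase IKBKE lay at -0.78, and the sensor IFIH1 at 0.11.

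Interferon-stimulated genes had a median of -0.07, with 11 of 32 above 0. OAS3, a sensor that makes the activator of RNase L, read 99.9 on the shScr array and 261 on the parental array (-1.03) and was the only member at 2-fold. IFIT1 (-0.28), ISG15 (-0.14) and MX1 (0.14), 3 of the most inducible members, lay near 0. None of 26 p53 targets was 2-fold different, with DDB2 (-0.76) and ZMAT3 (0.69) farthest out and the cell cycle inhibitor CDKN1A at -0.07. None of 9 drug efflux transporters was either. ABCG2, an efflux pump, lay at -0.28, and ABCB1, a pump known to carry puromycin, was detected on neither array.

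The largest difference of all was in vimentin, an intermediate filament protein of mesenchymal cells that many carcinoma lines also make. VIM read 212 on the shScr array and 5006 on the parental array, a difference of -4.32. LGALS1, galectin-1, which binds cell surface sugars, read 539 on the shScr array and 3174 on the parental array (-2.37). AXL, a receptor tyrosine kinase linked to invasion, read 432 on the shScr array and 2086 on the parental array (-2.06). VIM lay at -2.46 when the background column of the files was subtracted. All 3 kept at least 2-fold after the block medians were taken out, at -4.25, -2.49 and -1.99. Each of the 3 was read by 1 probe, so no second probe bears on their probe noise. On the shDKK3 array VIM read 3695, LGALS1 8876 and AXL 1261.

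Of 22 factors and mesenchymal genes of the epithelial-mesenchymal transition compared, 3 were 2-fold lower, 0 were 2-fold higher, and the median was -0.09. The count depended on the background correction: with the blank mean subtracted 7 were 2-fold lower and the median was -0.48 relative to all genes, and in the authors' deposited table there were 7 lower ones with a median of -0.45. The factors SNAI2 and TWIST1 lay at -0.10 and -0.17, and SNAI1 and ZEB1 were detected on neither array. FN1, fibronectin, lay at 0.63 and CDH2, N-cadherin, at -0.08. On the epithelial side the 2-fold higher keratins of 25 compared were KRT6C (1.21) and KRT6A (1.15), close relatives whose probes may not separate them. In the authors' deposited table the folds were 2.24 for KRT6C and 1.69 for KRT6A. KRT17, KRT14 and KRT5 lay at 0.92, 0.78 and 0.77, and E-cadherin (CDH1) at -0.11. Of 22 desmosome, claudin and cadherin genes, CLDN1 (-1.12) and CDH3 (-1.003) were 2-fold lower. Of 23 transcription factors of the squamous lineage, 0 were 2-fold different.

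Of 17 integrins and laminins, LAMB1 (-1.60), LAMA5 (-1.35) and ITGA5 (-1.06) were 2-fold lower, with a list median of -0.13. With the blank mean subtracted 7 of them were 2-fold lower and the median was -0.61 relative to all genes, and in the authors' deposited table there were 9 lower ones with a median of -0.80. With the background column subtracted 0 were lower and 1 was higher, LAMA5 lying at 0.20 and ITGA5 at 0.70. LAMB1, a laminin chain of basement membranes, read 79.8 on the shScr array and 334 on the parental array. TIMP2 (-1.20), an inhibitor of matrix proteases, and CTSV (-1.22), a cathepsin, were lower among 24 protease genes, where MMP10 was the 1 higher. ACTN4 (-1.42), which bundles actin, and TMSB4X (-1.13), which holds actin monomers, were lower among 26 actin-binding genes. CSTA (-1.49) and TGM2 (-1.40) were lower among 35 genes of the list that joins cornified envelope, S100 and keratinocyte differentiation genes. TGM2 was dim on the shScr array, at 5.9 against 83.5 on the parental array. It lay at -0.0 with the background column subtracted.

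Targets of NF-kB formed a second lower group. NF-kB is held in the cytosol by inhibitors such as NFKBIA, and once freed it turns on cytokines, chemokines and its own inhibitors. Of 38 such genes, 34 lay below 0, 10 reached 2-fold on the lower side and 0 on the higher side, with a median of -0.34. Of all genes compared, 0.986% were 2-fold lower. SAA1, an acute phase protein, read 31.5 on the shScr array and 256 on the parental array (-2.00), and the near-identical SAA2 lay at -1.60. CXCL2, a neutrophil chemokine, read 68.9 on the shScr array and 346 on the parental array (-1.79). CSF2, the cytokine GM-CSF, read 177 on the shScr array and 649 on the parental array (-1.63). SOD2, the mitochondrial superoxide dismutase, read 226 on the shScr array and 897 on the parental array (-1.77), a value whose sign turned when the background column of the files was subtracted.

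The feedback inhibitors of the pathway were lower as well. NFKBIA read 620 on the shScr array and 2073 on the parental array (-1.54), and TNFAIP3, the deubiquitinase A20, read 189 on the shScr array and 582 on the parental array (-1.39). The cytokines CXCL8 (-1.37), IL1B (-1.32) and TNF (-1.11) complete the 10. NFKB1 lay at -0.90 and ICAM1 at -0.93, while PTGS2 (0.34) and LCN2 (0.33) were the highest members. PTX3, a pattern recognition protein and also an inflammatory gene but not on the list, read 6.0 on the shScr array and 132 on the parental array (-1.89).

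Promoters of CXCL2 and TNFAIP3 are shown because their genes were 2-fold lower and carry NF-kB sites close to the start. They come from RefSeq (GRCh38.p14), CXCL2 from chr4:74099146-74099445 on the minus strand and TNFAIP3 from chr6:137867009-137867308 on the plus strand, each from 250 bases before the start to 50 after it, 5′ to 3′. Capitals mark the NF-kB site searched on both strands. It begins 78 bases before the start in CXCL2, and 67 and 55 bases before the start in TNFAIP3.
CXCL2: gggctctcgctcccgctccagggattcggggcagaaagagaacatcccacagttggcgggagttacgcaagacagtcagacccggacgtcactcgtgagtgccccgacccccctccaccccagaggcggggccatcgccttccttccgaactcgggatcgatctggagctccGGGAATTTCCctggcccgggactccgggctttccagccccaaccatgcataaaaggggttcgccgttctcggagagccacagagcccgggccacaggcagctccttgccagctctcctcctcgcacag
TNFAIP3: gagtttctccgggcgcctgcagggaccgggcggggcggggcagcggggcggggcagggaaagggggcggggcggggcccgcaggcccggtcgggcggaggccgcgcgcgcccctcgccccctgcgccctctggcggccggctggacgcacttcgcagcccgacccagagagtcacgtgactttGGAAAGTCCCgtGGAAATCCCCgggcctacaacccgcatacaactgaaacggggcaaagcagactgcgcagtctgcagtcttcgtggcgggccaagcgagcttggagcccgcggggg
The site lay in 13 of 29 promoters of the list (44.8%) and in 1548 of all 27305 (5.7%). Members with it had a median difference of -0.40, and members without it -0.26.

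Genes of mitosis formed a group in which every member lay on the same side. Their transcripts build up before cell division and are low in resting cells. All 38 genes of G2 phase and mitosis compared lay below 0, from -1.50 to -0.08, with a median of -0.78, and 10 of them were at least 2-fold lower. The share of all genes compared that were 2-fold lower was 0.986%. CENPA, the histone of the centromere, read 385 on the shScr array and 1222 on the parental array (-1.50). CENPE, a motor of the kinetochore, read 78.6 on the shScr array and 272 on the parental array (-1.34, and -0.86 on its second probe). HMMR and TPX2, proteins of the spindle, lay at -1.23 and -1.22. CCNB2, cyclin B2, read 319 on the shScr array and 826 on the parental array (-1.20).

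The others at 2-fold were KIF20A (-1.19), KIF23 (-1.12), DLGAP5 (-1.09), AURKA (-1.05) and CDCA8 (-1.02). CDKN3, a phosphatase that acts on cyclin-dependent kinases and stands outside the list, read 398 on the shScr array and 1528 on the parental array (-1.74). Of 39 genes of the G1/S step and DNA replication, 16 lay above 0 and the median was -0.05. PCNA, the replication clamp, was 2-fold higher at 1.03 and CCND2, a D-type cyclin, 2-fold lower at -1.26. With the background column subtracted, PCNA lay at -0.68 and CCND2 at 0.55. The authors' deposited table gives PCNA a fold of 1.56 higher and CCND2 a fold of 2.73 lower. The median was low in the mitotic list and near 0 in the replication list.

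The promoters of CENPA and CCNB2 are shown for the motifs shared by mitotic genes. They come from RefSeq (GRCh38.p14, plus strand), CENPA from chr2:26785806-26786105 and CCNB2 from chr15:59104896-59105195, in the same window around the start and written 5′ to 3′. Capitals mark TTTGAA, the core of the cell cycle homology region bound by the DREAM complex and its activating successor, and CCAAT, the site of NF-Y, each searched on both strands, so that CCAAT on the other strand appears as ATTGG. The match to TTTGAA begins 18 bases before the start in CENPA and 29 in CCNB2. CCAAT matches begin 205 and 130 bases before the start in CENPA, and 244, 120, 87 and 54 in CCNB2.
CENPA: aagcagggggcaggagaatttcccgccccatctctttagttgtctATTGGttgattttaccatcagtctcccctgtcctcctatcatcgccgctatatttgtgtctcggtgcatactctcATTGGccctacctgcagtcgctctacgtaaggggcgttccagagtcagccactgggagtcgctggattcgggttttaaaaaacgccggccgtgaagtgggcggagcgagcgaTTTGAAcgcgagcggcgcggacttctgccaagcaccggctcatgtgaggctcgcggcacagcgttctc
CCNB2: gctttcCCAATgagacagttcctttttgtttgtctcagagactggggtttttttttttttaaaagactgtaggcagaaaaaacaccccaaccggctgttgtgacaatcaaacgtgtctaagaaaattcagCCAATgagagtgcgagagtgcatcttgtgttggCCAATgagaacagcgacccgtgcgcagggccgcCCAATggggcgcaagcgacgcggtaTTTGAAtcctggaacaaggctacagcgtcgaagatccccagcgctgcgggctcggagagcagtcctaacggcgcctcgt
TTTGAA lay in 22 of 32 promoters of the list (68.8%) and in 4212 of all 27305 (15.4%), and CCAAT in 24 of 32 (75%) and in 9747 of all (35.7%). Members with TTTGAA had a median difference of -0.76 and those without it -0.79. Members with CCAAT had a median of -0.77 and those without it -0.62.

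**Figure D5:**
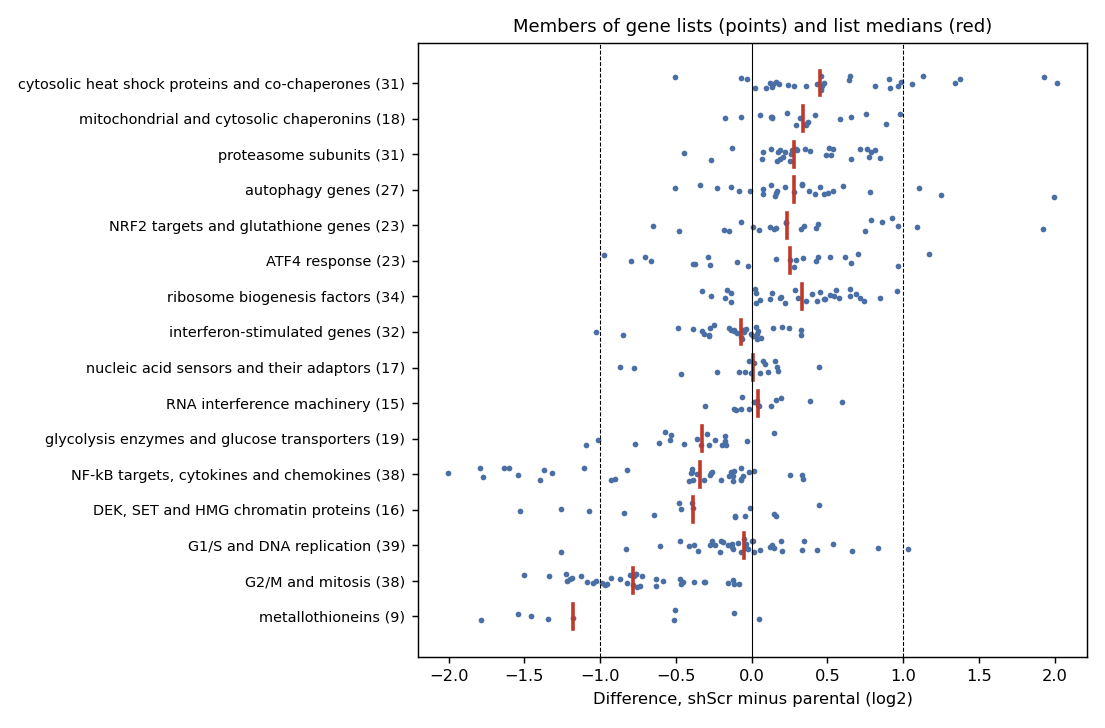
Log2 difference, shScr minus parental, of the compared members of 16 gene lists; each point is 1 gene, red bars are list medians, dashed lines mark 2-fold, and the number of genes stands in brackets. Heat shock genes have a median of 0.45, mitotic genes -0.78 with no point above 0, and metallothioneins -1.18.

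Metallothioneins, small proteins that bind zinc and copper, had the lowest list median. Of 9 compared, 5 were at least 2-fold lower and 0 higher, with a median of -1.18, where 0.986% of all genes were 2-fold lower. MT1H read 937 on the shScr array and 3739 on the parental array (-1.79), and MT1B 1456 on the shScr array and 5058 on the parental array (-1.54). MT1X (-1.46), MT1M (-1.35) and MT2A (-1.18) were the others, and MT3 lay at 0.05. The members are close copies in 1 gene cluster, and their probes may read each other's transcripts, so the 5 are not separate observations.

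Glycolysis enzymes and glucose transporters lay below 0 in 18 of 19 genes, with a median of -0.33. ALDOA, aldolase, read 1873 on the shScr array and 4703 on the parental array (-1.01), and ENO2, an enolase, read 24.1 on the shScr array and 102 on the parental array (-1.09). TPI1 was the member above 0, at 0.15. Of 24 other genes induced by low oxygen, 3 were 2-fold lower, with a median of -0.14. NDRG1, a stress and differentiation gene, read 63.3 on the shScr array and 328 on the parental array (-1.81). PFKFB3, which makes an activator of glycolysis, lay at -1.27 on its bright probe and 0.03 on a dim second probe, and BNIP3, a mitophagy receptor, at -1.06. Other members of the same response lay near 0, among them VEGFA (0.01), CA9 (-0.15) and ADM (0.06).

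Chromatin proteins of the HMG group were lower in part: of 16 genes of the DEK, SET and HMG list, 3 were 2-fold lower and the median was -0.39. HMGA1, which bends AT-rich DNA, read 338 on the shScr array and 1107 on the parental array (-1.53, and -0.69 on its second probe). HMGA2 lay at -1.26 and HMGB3 at -1.08, while DEK itself lay at 0.45. Among immediate early genes and feedback genes of ERK, EGR1 (-1.23), HBEGF (-1.16) and DUSP6 (-1.13) were 2-fold lower of 28, with FOS at -0.28 and MYC at 0.21. NT5E (-1.16) joined AXL among 25 YAP and TAZ targets, whose best known members CCN1 and CCN2 lay at -0.11 and -0.06. BID (-1.52), which links death receptors to mitochondria, and PSMB9 (-1.01), a subunit of the immunoproteasome, were the 2-fold members of the BCL2 family and of MHC class I presentation.

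DKK3, the gene that the study's other hairpin targets, read 226 on the shScr array and 309 on the parental array, a difference of -0.32, and 170 on the shDKK3 array. DKK1, a secreted Wnt inhibitor, read 2748 on the shScr array and 3240 on the parental array (0.04). DKK2 read 5.6 on the shScr array and 11.4 on the parental array (-0.13), and DKK4 10.7 and 11.5 in the same order (0.04), both dim. The authors' deposited table gives DKK2 a fold of 2.03 lower. DKKL1 read 60.5 on the shScr array and 81.9 on the parental array (-0.20). Of the receptors, CKAP4, which binds DKK1 and DKK3, read 246 on the shScr array and 780 on the parental array (-1.47, and -0.79 on its second probe). KREMEN2, a partner of DKK1 at the Wnt co-receptor, read 12.7 on the shScr array and 107 on the parental array (-1.43). The co-receptors LRP5 and LRP6 both lay at -0.09. Of 29 Wnt ligands, receptors and targets, 0 were 2-fold different, with GSK3B (-0.87) and FZD2 (-0.79) farthest out.

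The remaining genes among the 15 lowest had mixed roles. SERPINA1, alpha-1-antitrypsin, read 133 on the shScr array and 602 on the parental array (-1.88). MGLL, monoacylglycerol lipase, read 120 on the shScr array and 532 on the parental array (-1.80). CHCHD10, a mitochondrial protein, read 43.3 on the shScr array and 255 on the parental array (-1.77). LCP1, plastin-2, an actin bundler best known from leukocytes, read 17.8 on the shScr array and 167 on the parental array (-1.79). All 146 lower genes were detected on both arrays and at least 2-fold lower in the authors' deposited table too. That table holds the same spots scaled in another way, with 965 lower genes and the median of all genes at -0.20. It is therefore no second measurement of the lower genes.

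The shDKK3 array gives a second line made with lentivirus and kept in puromycin, and its difference from the parental array is given beside that of the shScr array. Both differences use the same parental array, so a value peculiar to that array enters both. Mitotic genes had a list median of -0.78 for shScr and -0.59 for shDKK3, relative to parental, and NF-kB targets -0.34 and -0.41. SAA1 lay at -2.00 for shScr and -1.85 for shDKK3, PTX3 at -1.89 and -1.75, CXCL2 at -1.79 and -1.76, and LCP1 at -1.79 and -2.07. UBE2G1 lay at 1.68 for shScr and 1.47 for shDKK3. These 5 genes were picked after their values were seen, for differences of like sign in both lines. With the background column subtracted, UBE2G1 (-0.12) and PTX3 (0.10) had the opposite sign for shScr.

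Other groups had different values in the 2 lines. Heat shock genes had a list median of 0.45 for shScr and -0.03 for shDKK3, relative to parental, with HSPA1A at 2.01 and -0.19. Metallothioneins had -1.18 and 0.18, glycolysis genes -0.33 and 0.27, and ribosome biogenesis factors 0.33 and -0.23, in the same order. VIM lay at -4.32 for shScr and -0.78 for shDKK3, and H4C8 at 2.14 and 0.11. NDRG1 (-1.81 and 1.14) and LGALS1 (-2.37 and 0.99) had opposite signs. These genes and lists were picked after their values were seen, for a shScr value farther from parental than the shDKK3 value, each read from 1 array. Other lists lay the other way: the hnRNP and SR splicing factors had a median of 0.05 for shScr and -0.84 for shDKK3, the DEK, SET and HMG proteins -0.39 and -0.81, the golgins 0.23 and -0.40, and the keratins 0.02 and 0.48.

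Genes detected on only 1 of the 2 arrays could be bounded. Above the blanks on the shScr array and not on the parental array were 462 genes, of which MAEL, a germ line gene, had the highest bound, at least 1.49-fold higher. CCL18, a chemokine, was at least 1.33-fold higher. Above the blanks on the parental array and not on the shScr array were 211 genes, led by SIAE, a sialic acid esterase, at least 1.71-fold lower on the shScr array. LOX, which crosslinks collagen, was at least 1.51-fold lower and LAPTM5, a lysosomal protein, at least 1.42-fold lower. A bound sets the level on the brighter array against the dim probe's level or the lowest level of any detected probe, whichever is higher. All of these bounds are below 2-fold.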

How the data were processed

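Total RNA of HSC-3 cells was measured on 3 arrays of 1 colour (Cy5), 1 per condition, and groups were taken from the labels. Per the file headers, the deposited intensity is a median per spot, read at 635 nm, joined from scans at 3 gains and not background subtracted. A second deposited intensity column, headed as background, follows the brightness of its own spot and served only as an alternative. A table of normalised intensity, also deposited by the authors, was compared with the spots. Its values are spot medians less the blank mean (5% trimmed at each end) over a slope of 1.83 (shScr), 1.04 (shDKK3) and 1.41 (parental), on a linear scale, with no centring per gene and the direction of the spots. The labels state no method for it. Scanner software and probe sequences are not given in the sources used here, so GC content was not checked.

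Spot medians were corrected in limma 3.58.1 (R 4.3.3) by normexp with an offset of 50, using all spots for the fit, then quantile normalised across all 3 arrays (gene probes) and taken to log2. A probe was detected above the mean plus 2 SD of 2680 blank spots, at 59.1 (shScr), 49.2 (shDKK3) and 54.3 (parental). Probes marked not good, 9 in all, were left out. Symbols came from the platform annotation (20228 probes with 1 symbol, 4223 without) and were updated through RefSeq GRCh38.p14. For 2538 of 17614 symbols an older name was replaced and 86 had no single match. The probe with the highest mean stood for its gene. A gene entered if its brighter array detected it, and was counted from a log2 difference of 1. The procedure was tested on simulated data.

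The members, the 48 gene lists and the 6 marker lists were chosen with earlier results of these data known. Named are the 15 highest and 15 lowest of the genes detected on both arrays that also reach 2-fold in the authors' table, up to 4 members of each list at 2-fold (up to 2 where none is), up to 5 bounded genes each way and the DKK family. Further list members and second probes were named after their values were seen. Uncharacterised loci were counted and not named. List members without a probe of that symbol are not analysed here. Promoters came from the RefSeq table. Alternatives were other background corrections, offsets, scalings, filters, probe rules and thresholds, the authors' table, and block medians removed.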

Additional observations from a re-analysis of the deposited data

How the results depend on the processing

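No paired analysis was possible because each condition has 1 array, and for the same reason no replicate could be left out. The count of genes at least 2-fold higher and lower on the shScr array was 60 and 146. It was 384 and 561 with the blank mean subtracted, 103 and 246 with an offset of 16, 224 and 213 with the second column as local background, 95 and 109 with scaling to the median, and 158 and 965 in the authors' deposited table. At thresholds of 1.5-fold and 3-fold it was 449 and 561, and 10 and 21. The share of lower genes was 70.9%, against 59.4% with the blank mean subtracted, 48.7% with the second column, 53.4% with median scaling and 85.9% in the authors' table. Scaling to the 75th percentile put the median of all genes at -0.10 and the authors' table at -0.20. Agreement was partly fixed in advance in the tally that follows. The filter alternatives change which genes enter, not their values, and again gave 60 and 146. Averaging probes cannot change a gene with 1 probe. Leaving out background correction gave 62 and 153, near the main counts. The highest and lowest named genes also had to reach 2-fold in the authors' table, itself 1 of the alternatives. The 79 named genes at 2-fold gave 1027 values under 13 alternatives, of which 1007 kept their sign and 932 were also at least 2-fold. Under the second column 29 of the 79 kept sign and 2-fold, and the other 20 values, of opposite sign, came from it alone: AKR1C2 -0.15, BID 0.56, BNIP3 0.19, CCND2 0.55, CKAP4 0.36, DDIT3 -0.01, EGR1 0.03, ENO2 0.05, GABARAPL1 -0.51, HSPA1B -0.06, ITGA5 0.70, LAMA5 0.20, MGLL 0.27, OAS3 0.18, PCNA -0.68, PFKFB3 0.04, PTX3 0.10, SEC23B -0.36, SOD2 0.62 and UBE2G1 -0.12. The cause was not tested. The same column turned the list medians of the ATF4 response (-0.03), of ribosome biogenesis factors (-0.01) and of endoplasmic reticulum chaperones (0.05). Relative to all genes, the median of heat shock genes stayed between 0.08 and 0.63, of mitotic genes between -0.91 and -0.54, of NF-kB targets between -0.81 and -0.08, of metallothioneins between -1.43 and -0.32, of glycolysis genes between -0.52 and -0.05, of DEK, SET and HMG genes between -0.43 and -0.12, of autophagy genes between 0.03 and 0.44, of proteasome subunits between 0.04 and 0.36, of mesenchymal genes between -0.48 and -0.01, and of integrins and laminins between -0.80 and -0.01. Counts of 2-fold lower members ran from 5 to 19 for mitotic genes, 3 to 19 for NF-kB targets and 1 to 6 for glycolysis genes, and of 2-fold higher heat shock genes from 6 to 10. Dim probes limit what could be seen: the offset shrinks their folds, and 1 array per condition gives no error between cultures.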

Other observations

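These genes stand outside the lists and were chosen after their values were seen, for known roles like those of groups already described, so they support nothing about those groups. FOXM1, a transcription factor of mitotic genes, read 75.8 on the shScr array and 248 on the parental array (-1.25). The mitotic genes KIFC1 (-1.32), PRR11 (-1.33), FAM83D (-1.22), TROAP (-1.21) and CKAP2 (-1.08) were also 2-fold lower. VCP, the ATPase that pulls ubiquitinated proteins out of membranes and complexes, read 1196 on the shScr array and 654 on the parental array (1.05). NUDC (1.02) and DNAJB2 (1.02), both chaperone partners, and CLU (1.01), a secreted chaperone, were 2-fold higher too.

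CORO1A, LTB and ALOX5AP, also chosen after their values were seen, were 2-fold lower. CORO1A, an actin regulator, read 19.2 on the shScr array and 118 on the parental array (-1.36). LTB, lymphotoxin beta, read 7.9 on the shScr array and 103 on the parental array (-1.55), and ALOX5AP, a partner of 5-lipoxygenase, read 2.1 on the shScr array and 77.5 on the parental array (-1.47). Of 11 leukocyte markers on the array, 7 were detected well enough to be compared. These 7 had a median of -0.06, ran from -0.23 to 0.10, and 0 were 2-fold different.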
